A study of Mus musculus with 27 samples.

Results

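Besides cGAS, mammalian cells carry a set of sensors that recognise nucleic acid by its structure or by the compartment in which it appears. This account follows 10 genes for such sensors and their direct partners, Ddx58, Ifih1, Dhx58, Mavs, Zbp1, Aim2, Tlr3, Tlr7, Tlr9 and Eif2ak2, chosen by symbol from the 31053 genes in the count files. All 10 were present under these symbols. The study asked how the microglial interferon response to tau depends on Cgas, the gene for the cytosolic DNA sensor cGAS, and single-nucleus RNA-seq was carried out on hippocampi of 27 mice, with 1 library per mouse. The mice fell into 6 genotype groups. Of the 9 without a transgene, 5 were labelled Cgas+/+, 2 Cgas+/- and 2 Cgas-/-, and of the 18 with the P301S transgene, 6 were labelled with each Cgas genotype. The transgene encodes a human tau mutated as in inherited frontotemporal dementia and is transcribed from the promoter of mouse Prnp, which is active in neurons and in other cells of the brain. The Cgas allele came from crosses with Cgas-/- mice, for which no Cre or cell type is named. Non-transgenic and transgenic mice came from the same crosses, both sexes were used, and the labels give no age. The libraries labelled Cgas+/- and Cgas-/- without P301S were all from males, 2 of each. The headers of their count files all name software version 3.0.2. Each of the other groups holds both 3.0.2 and 3.1.0, and every female library has 3.1.0.

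RIG-I (encoded by Ddx58) and MDA5 (Ifih1) bind viral-type double-stranded RNA in the cytosol and signal through MAVS on the mitochondrial surface to switch on type I interferon. LGP2 (Dhx58) lacks the signalling domain and modulates both. ZBP1 binds Z-form nucleic acid and can start necroptosis, AIM2 assembles an inflammasome on cytosolic DNA, and PKR (Eif2ak2) is a kinase that halts translation when it meets double-stranded RNA. TLR3, TLR7 and TLR9 sense double-stranded RNA, single-stranded RNA and unmethylated DNA inside endosomes. Ddx58, Ifih1, Dhx58, Zbp1 and Eif2ak2 are themselves classical interferon-stimulated genes, and microglia are the resident macrophages of the brain.

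Values are CPM, a gene's UMIs in a class of nuclei of 1 library per 1000000 UMIs of that class and library, and an SD is between libraries. Libraries held 7246 to 14770 barcodes and 46091488 to 79484320 UMIs, and 204852 nuclei were kept. Clusters were named from marker genes into 15 classes, each called "like" a cell type. The 11347 microglia-like nuclei held 218 to 1211 nuclei and 289128 to 1965922 UMIs per library. In all, 8042 nuclei stayed unnamed, and 4237 of them came from P301S Cgas+/+ replicate 3, which also had the lowest median depth (2025 UMIs per nucleus). The unnamed share of nuclei was 1.08%, 0.36% and 0.792% in Cgas+/+, Cgas+/- and Cgas-/-, and 11.1%, 2.29% and 1.81% in P301S Cgas+/+, P301S Cgas+/- and P301S Cgas-/-. Cgas itself (Mb21d1 in the files) did not follow the labels. In microglia-like nuclei it averaged 34.6 ± 2.34 CPM in Cgas+/+ (n = 5), 18.3 ± 3.51 CPM in Cgas+/- (n = 2) and 27.6 ± 8.0 CPM in Cgas-/- (n = 2), and 37.3 ± 11.6 CPM in P301S Cgas+/+ (n = 6), 42.2 ± 11.2 CPM in P301S Cgas+/- (n = 6) and 50.4 ± 7.12 CPM in P301S Cgas-/- (n = 6). Whether the counted 3′ part of the transcript lies in the deleted part of the gene, and whether any library carries the wrong Cgas label, was not tested. What the deletion and heterozygous values mean rests on those labels, and groups are named below as the libraries are labelled.

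Each sensor had its own pattern over the classes, which is described here without a test because classes were cut from the same nuclei. Tlr7 was the most restricted of the well-detected members, with 88.4% of its UMIs in microglia-like nuclei at 185 ± 31.7 CPM (n = 27). The only higher mean was in the 92 border macrophage-like nuclei, at 388 CPM from 53 UMIs. In excitatory neuron-like, inhibitory neuron-like and astrocyte-like nuclei, Tlr7 stood at 0.317, 0.312 and 0.291 CPM.

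Astrocyte-like nuclei held 77.3% of all Tlr3 UMIs at 43.7 ± 6.15 CPM, followed by microglia-like nuclei at 26.8 ± 7.9 CPM and endothelial-like nuclei at 14.9 ± 13.6 CPM (n = 27 each). The endothelial-like range overlapped both. Tlr3 stood at 0.193 CPM in excitatory neuron-like nuclei.

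Tlr9 gave 17 UMIs in the whole data set, 12 of them microglial and 5 from the excitatory class. At 0.563 CPM in microglia-like nuclei, with 18 of 27 libraries at 0, it was too sparse to compare between groups.

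Among the large classes Aim2 was highest in microglia-like nuclei, at 251 ± 39.9 CPM (n = 27), where 33.9% of nuclei held at least 1 UMI. Oligodendrocyte-like nuclei followed at 50.3 ± 19 CPM, without overlap between the classes, and the neuron-like classes stood at 11.8 ± 2.84 (excitatory) and 12.9 ± 4.61 CPM (inhibitory). The Aim2 gene model on chromosome 1 is overlapped on the opposite strand by Cadm3, a neuronal adhesion gene that had a pooled level of 69 CPM in the excitatory class and 16.1 CPM in microglia-like nuclei. The part of Cadm3 reads in the neuronal Aim2 values was not tested.

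The RIG-I-like receptors were spread over glia and vessels. Leaving aside the smallest classes, Ddx58 averaged 64.4 ± 57.8 CPM in endothelial-like, 42.7 ± 21.5 in microglia-like, 33.5 ± 16.9 in oligodendrocyte progenitor-like, 30.2 ± 25.1 in mural-like and 29 ± 18.1 CPM in astrocyte-like nuclei, with overlapping ranges, against 2.58 ± 0.754 CPM in excitatory neuron-like nuclei. Ifih1 averaged 67.7 ± 49.8 CPM in endothelial-like, 46.3 ± 24.5 in microglia-like, 39.1 ± 24.5 in mural-like, 22.9 ± 23.9 in ependymal-like and 16.6 ± 9.45 CPM in astrocyte-like nuclei, and the 735 fibroblast-like nuclei stood at 32.6 CPM. Its level in oligodendrocyte progenitor-like nuclei, 6.17 ± 6.32 CPM, and in excitatory neuron-like nuclei, 1.13 ± 0.53 CPM, was lower. The 341 T cell-like nuclei also held both receptors, with 58 UMIs of Ddx58 and 44 of Ifih1. Pooled levels there were 102 CPM for Ddx58 and 77.2 CPM for Ifih1, against 59.5 and 68.9 CPM in endothelial-like nuclei. The mean over libraries was higher in T cell-like nuclei for Ddx58 (79.9 ± 148 CPM) but not for Ifih1 (55.6 ± 71.2 CPM).

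Dhx58 was the scarcest of the RIG-I-like receptors at 11.5 ± 8.96 CPM in microglia-like nuclei and stood at 0.748 and 0.73 CPM in excitatory and inhibitory neuron-like nuclei. It shares its locus with the antisense gene Dhx58os, which gave 174 UMIs in microglia-like nuclei beside 252 of Dhx58, and stood at 0.651 CPM in the excitatory class, beside 557 UMIs of Dhx58 at 0.736 CPM when pooled. Mavs, the common adaptor, was spread over glia and choroid plexus, at 30.6 ± 16.5 CPM in choroid plexus-like, 24 ± 8 in microglia-like, 16.6 ± 2.66 in astrocyte-like, 10.5 ± 1.99 in oligodendrocyte-like and 0.768 ± 0.284 CPM in excitatory neuron-like nuclei.

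Eif2ak2 averaged 110 ± 55.1 CPM in microglia-like nuclei, 62.6 ± 42.5 CPM in endothelial-like, 56.2 ± 18.7 CPM in astrocyte-like, 44.7 ± 25.9 CPM in choroid plexus-like, 27.3 ± 27.5 CPM in ependymal-like and 22.7 ± 14.3 CPM in oligodendrocyte progenitor-like nuclei, each overlapping the next. Zbp1 was rare. Of its 256 UMIs, 137 (53.5%) were in microglia-like nuclei, at 5.11 ± 5.76 CPM, and 10 of 27 libraries had none. A further 32 were in astrocyte-like, 26 in excitatory neuron-like, 15 in T cell-like and 10 in oligodendrocyte-like nuclei. The pooled level was higher in the 341 T cell-like nuclei, at 26.3 CPM, than in microglia-like nuclei, at 6.84 CPM.

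**Figure D1:**
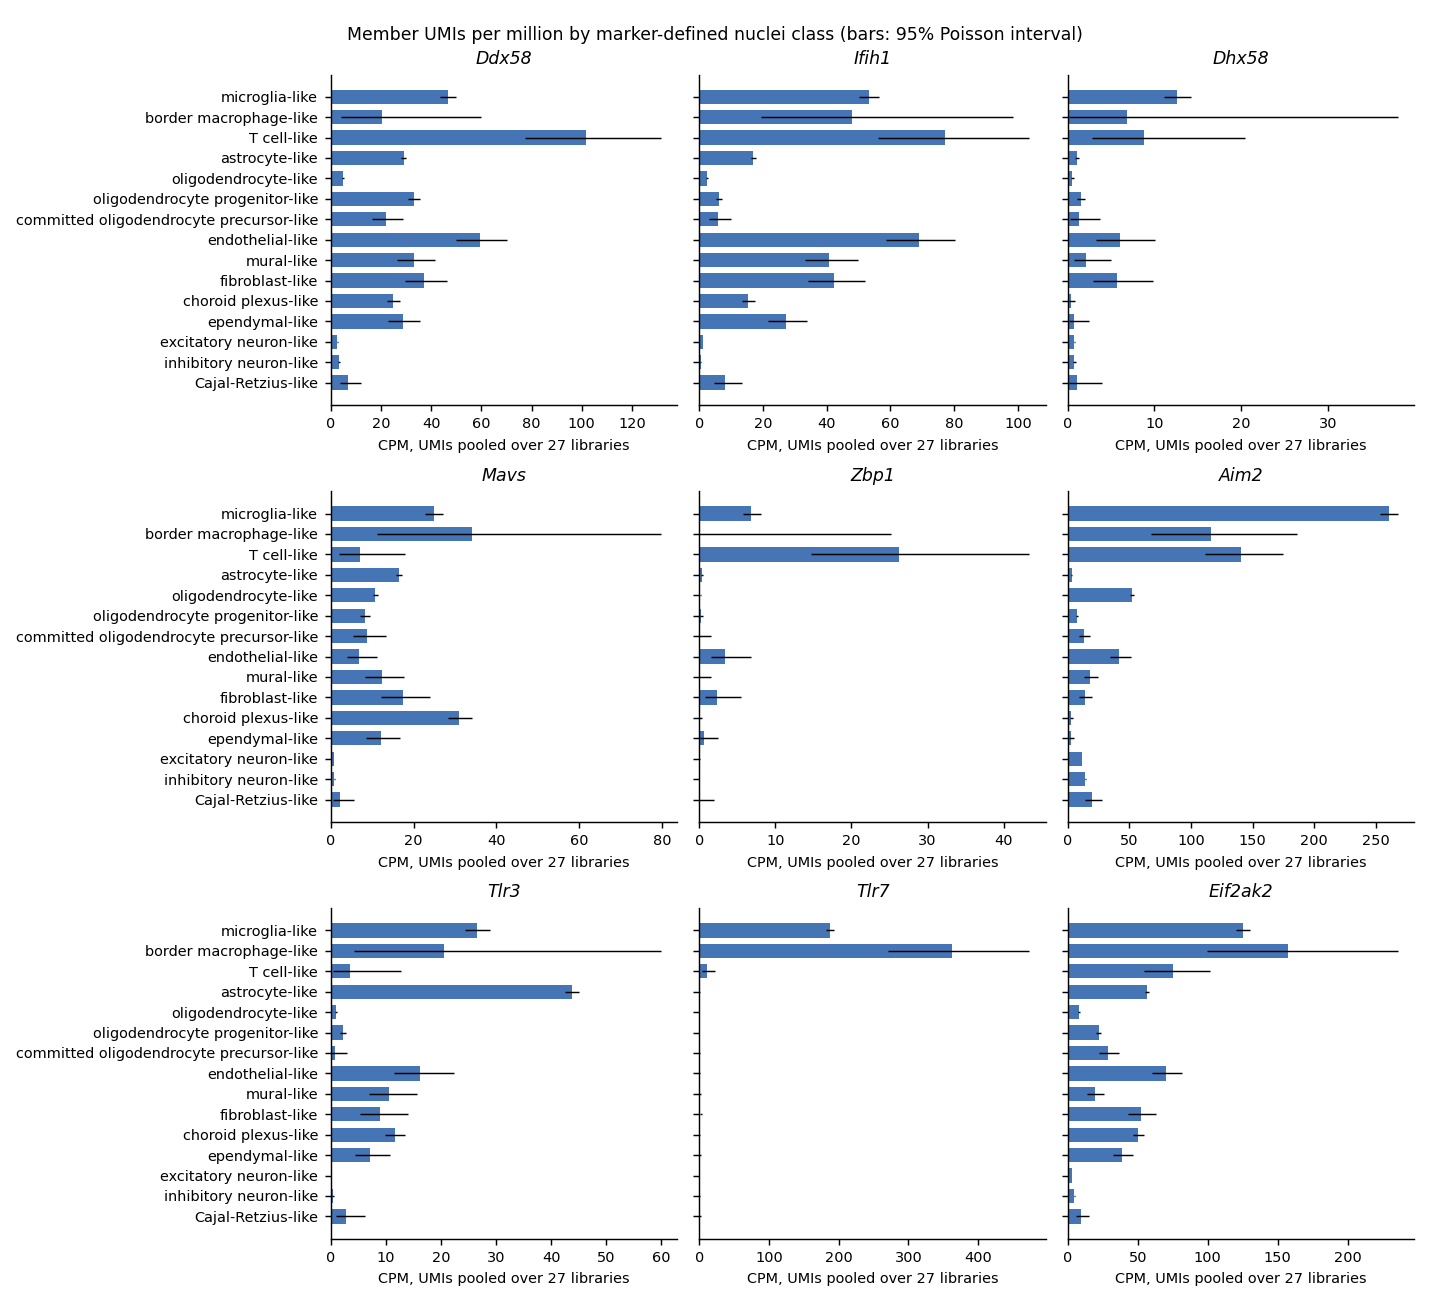
Level of each member in 15 marker-defined classes, as CPM of UMIs pooled over the 27 libraries with 95% Poisson intervals, on a separate axis per gene from 0. Tlr7 and Aim2 are tallest in macrophage-type classes, Tlr3 in astrocyte-like nuclei, and Ddx58, Ifih1 and Eif2ak2 span several glial and vascular classes. Ddx58, Ifih1 and Zbp1 are tallest in T cell-like nuclei and Eif2ak2 in border macrophage-like nuclei, all on few UMIs. Tlr9 is left out.

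In GRCm38 the called members lie at chr4:40203773-40239828 (Ddx58, ENSMUSG00000040296, minus strand), chr2:62595798-62646255 (Ifih1, ENSMUSG00000026896, minus), chr2:173206612-173218923 (Zbp1, ENSMUSG00000027514, minus) and chr17:78852564-78882573 (Eif2ak2, ENSMUSG00000024079, minus). The others lie at chr11:100694884-100704271 (Dhx58, minus), chr2:131234063-131248025 (Mavs, plus), chr1:173350879-173466040 (Aim2, plus), chr8:45395665-45411080 (Tlr3, minus), chrX:167304929-167330558 (Tlr7, minus) and chr9:106222598-106226883 (Tlr9, plus). No member overlaps another gene on its own strand.

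The promoters of 7 members were in the RefSeq table (GRCm38.p6), each as the 300 bases from 250 before to 50 after the start. Dhx58, Zbp1 and Tlr7 were not matched. They were searched on both strands for the core of the interferon-stimulated response element, GAAA, any 2 bases, then GAAA, which is bound by interferon regulatory factors and ISGF3. It was present in 3 of 7 members, Ddx58, Ifih1 and Eif2ak2, and in 3.44% of all 32851 promoters. The 3 promoters that hold it are shown in lower case with the match in capitals, 5′ to 3′ on the gene's strand, the minus strand for each. All 3 genes were called in microglia-like nuclei in the results that follow, and a link with the match was not tested. The Ddx58 window is chr4:40239776-40240075, that of Ifih1 chr2:62646206-62646505 and that of Eif2ak2 chr17:78882523-78882822.
Ddx58: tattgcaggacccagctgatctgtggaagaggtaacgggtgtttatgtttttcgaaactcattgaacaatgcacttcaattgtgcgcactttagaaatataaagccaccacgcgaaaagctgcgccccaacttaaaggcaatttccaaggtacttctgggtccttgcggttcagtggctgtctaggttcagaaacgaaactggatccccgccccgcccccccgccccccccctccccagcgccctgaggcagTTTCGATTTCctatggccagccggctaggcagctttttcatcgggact
Ifih1: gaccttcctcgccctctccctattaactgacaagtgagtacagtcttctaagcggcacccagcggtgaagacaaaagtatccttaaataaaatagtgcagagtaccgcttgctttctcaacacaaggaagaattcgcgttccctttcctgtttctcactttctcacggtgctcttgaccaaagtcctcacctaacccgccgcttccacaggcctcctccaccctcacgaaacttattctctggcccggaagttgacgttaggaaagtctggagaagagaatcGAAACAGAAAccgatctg
Eif2ak2: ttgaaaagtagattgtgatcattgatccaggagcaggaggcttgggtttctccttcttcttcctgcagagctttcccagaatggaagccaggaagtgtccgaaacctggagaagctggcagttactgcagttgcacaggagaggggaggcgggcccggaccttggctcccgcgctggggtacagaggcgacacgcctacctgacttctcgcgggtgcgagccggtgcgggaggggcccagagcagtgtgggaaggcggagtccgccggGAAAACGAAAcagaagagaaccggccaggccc
The match lay in bases 253 to 262 of the Ddx58 window (on the opposite strand), 283 to 292 of the Ifih1 window and 269 to 278 of the Eif2ak2 window, which places all 3 within the first 50 transcribed bases. The core of the gamma-activated site, TTCNNNGAA, was found in Eif2ak2 alone among the 7 (bases 73 to 81) and in 8.3% of all promoters. Both cores together occurred in 0.454% of all promoters. The windows of Mavs, Aim2, Tlr3 and Tlr9 held neither set of letters. Those of Aim2 (chr1:173420354-173420653) and Tlr3 (chr8:45410331-45410630) lie inside the gene models given above. The outer starts of these models were not searched.

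The effect of tau was tested first as the mean of the 3 P301S groups minus the mean of the 3 groups without P301S, in a fit of all 27 libraries with sex as a covariate. In microglia-like nuclei, 4 of the 9 members that passed the filter on low counts rose in P301S (edgeR's quasi-likelihood test, Benjamini-Hochberg adjusted p under 0.05 over all 9738 genes tested): Ddx58, Ifih1, Zbp1 and Eif2ak2. None fell. Over all genes, 7.84% were called higher in this comparison. Zbp1 and Dhx58 passed the filter only through P301S libraries, so they could enter the test only by being high there, and the count of members called is a description. The p-values measure the spread between libraries, and in sums over nuclei a lower number of expressing nuclei cannot be told apart from less RNA per nucleus.

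Ddx58 separated the libraries best of the 4. Its CPM was 29, 19.3, 18.5, 29.4 and 29.9 in the 5 Cgas+/+ libraries, 17.3 and 34.7 in Cgas+/-, and 27.1 and 15.2 in Cgas-/-. The lowest, median and highest values were 30.2, 45.8 and 95.7 CPM in P301S Cgas+/+, 28.3, 48.3 and 67.6 in P301S Cgas+/-, and 34.7, 39.9 and 95.5 in P301S Cgas-/-. Thus 15 of 18 P301S libraries lay above every library without the transgene. The log2 fold change was 1.13 ± 0.24 (SE), with an adjusted p of 0.0045 by edgeR, and the call held in all 27 fits that left out 1 library.

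Ifih1 rose by a similar amount with more overlap. The Cgas+/+ libraries gave 26.6, 60.2, 20.8, 26.5 and 22.5 CPM, the Cgas+/- libraries 38 and 23.7, and the Cgas-/- libraries 17.2 and 13.5. P301S Cgas+/+ ran from 23.7 through a median of 71.4 to 94.7 CPM, P301S Cgas+/- from 26.4 through 46.9 to 86.4, and P301S Cgas-/- from 27.4 through 56.3 to 73.1. Only 8 of 18 P301S libraries exceeded all others, and Cgas+/+ replicate 2, at 60.2 CPM, stood well above the next highest Cgas+/+ library. The log2 fold change was 1.36 ± 0.29 (edgeR, adjusted p = 0.0051) and was lost without Cgas+/- replicate 2 (adjusted p = 0.0502).

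Dhx58, the modulator of both, was not called by edgeR (adjusted p = 0.0514; DESeq2 adjusted p = 0.0405), and as for Zbp1 these p-values are a description. Its median was 13.6 CPM over 18 P301S libraries and 6.74 CPM over the 9 others, with 8 P301S libraries above every other and ranges of 2.94 to 34.3 and 0 to 13.8 CPM. Mavs, through which RIG-I and MDA5 signal, gave 0.60 ± 0.22 (edgeR, adjusted p = 0.0705), with medians of 26.4 and 19.3 CPM and only 3 of 18 P301S libraries above the highest of the others.

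Zbp1 went from nearly absent to low. Without P301S it gave 3 UMIs in 9 microglia-like libraries, 1 each in Cgas+/+ replicates 2 and 5 and in Cgas+/- replicate 1. In P301S it gave 134 UMIs, at 0 to 17.8 CPM with a median of 7.72 CPM in P301S Cgas+/+, 0 to 11.1 with a median of 5.65 in P301S Cgas+/-, and 0 to 15.6 with a median of 6 in P301S Cgas-/-. Of 18 P301S libraries, 13 exceeded every other and 4 had no UMI. The ratio of pooled levels was 12.8, with a 95% counting interval of 4.29 to 62.9 that covers counting error only. edgeR called it (adjusted p = 0.0105), but since it passed the filter only through the group where it was high, that p is given as a description and its fitted fold change is not used. Zbp1 passed the filter in only 15 of the fits that left out 1 library and was called in 14 of them, with an adjusted p of 0.0626 without Cgas+/- replicate 2.

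Eif2ak2 rose from a median of 65.7 to 129 CPM. The libraries of Cgas+/+ gave 58.1, 86.7, 62.5, 64.7 and 73 CPM, those of Cgas+/- 65.7 and 83.7, and those of Cgas-/- 54.1 and 75.8. P301S Cgas+/+ ranged from 60.9 to 208 CPM with a median of 143, P301S Cgas+/- from 49.9 to 224 with a median of 112, and P301S Cgas-/- from 52.9 to 201 with a median of 126. The 9 libraries without P301S were tight, and 13 of 18 P301S libraries lay above them while the other 5 lay among or below them. The log2 fold change was 1.04 ± 0.27 (edgeR, adjusted p = 0.0162), and the call was lost without Cgas+/- replicate 1, Cgas+/- replicate 2 or Cgas-/- replicate 1, with a highest adjusted p of 0.0796.

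The DNA sensor Aim2 and the endosomal receptors gave small estimates. Aim2 had medians of 256 CPM with P301S and 237 without, on ranges of 209 to 348 and 167 to 284 CPM, and a log2 fold change of 0.20 (95% interval -0.01 to 0.41; edgeR adjusted p = 0.235). Tlr7 had medians of 188 and 197 CPM and a log2 fold change of 0.09 (-0.16 to 0.33; adjusted p = 0.719). Tlr3 gave 0.03 (-0.43 to 0.49; adjusted p = 0.971). For each of the 3 genes the P301S range overlapped that of the other libraries. Tlr9, with 10 UMIs in P301S and 2 in the other libraries, was below the filter.

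**Figure D2:**
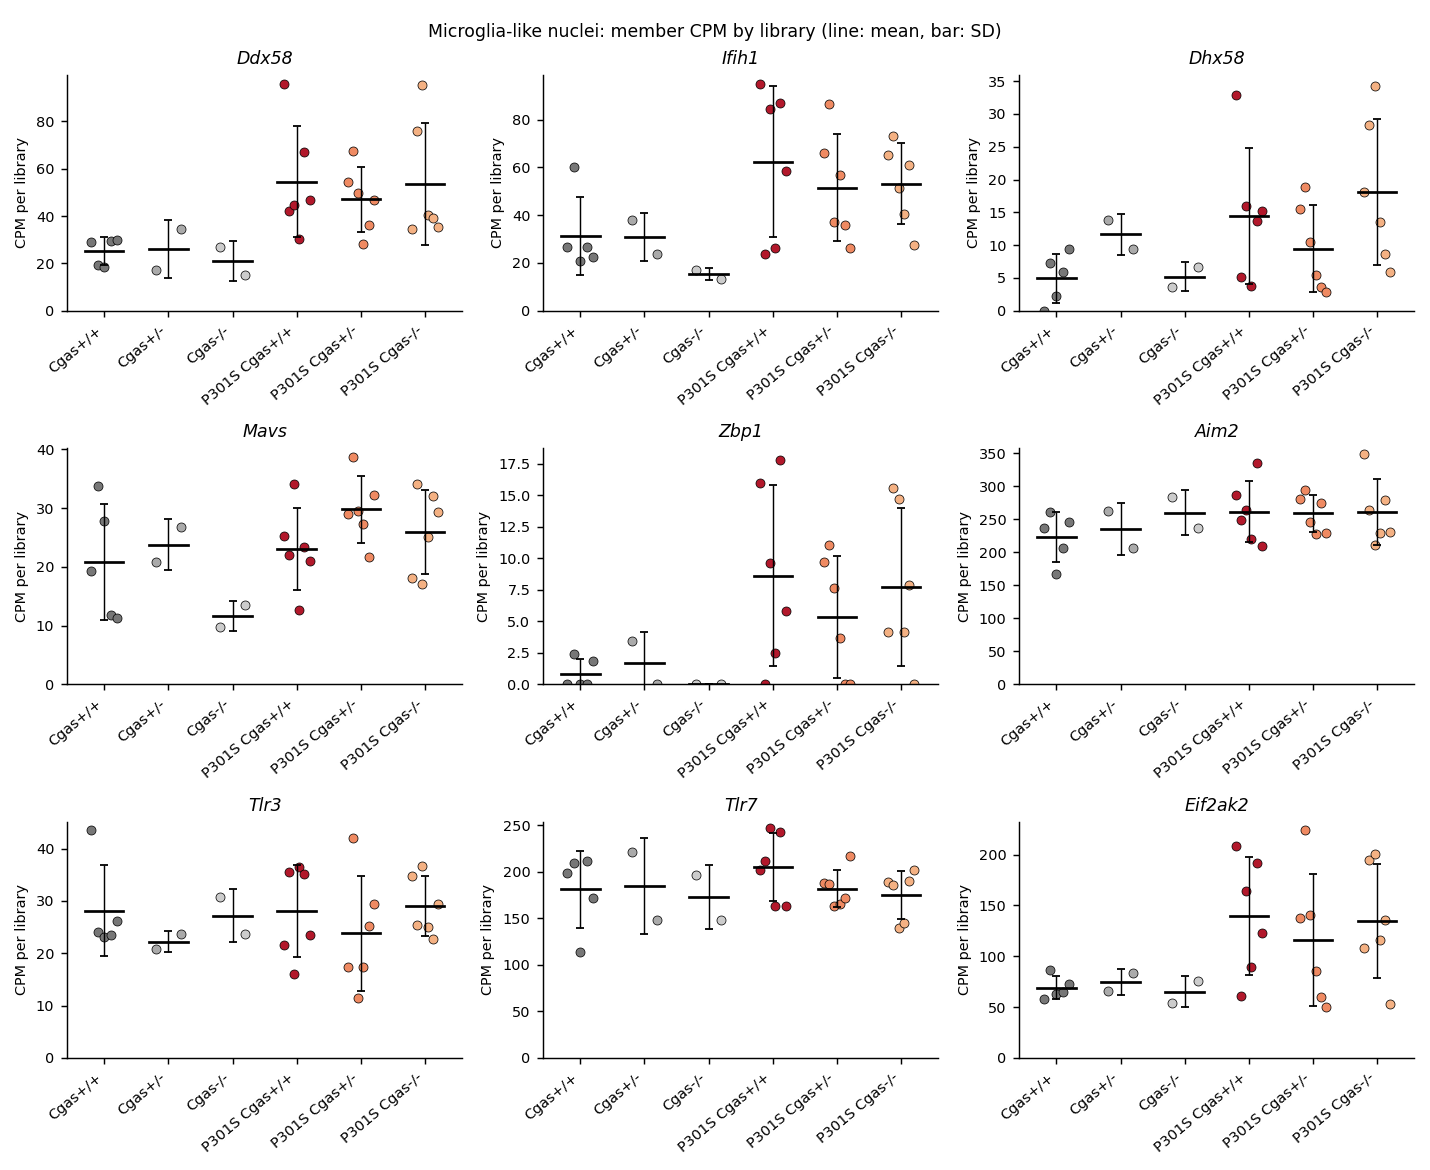
CPM of each member in microglia-like nuclei, 1 point per library in the 6 genotype groups, with the mean as a line and the SD as a bar, on a linear axis from 0. Ddx58, Ifih1, Zbp1 and Eif2ak2 reach higher in the P301S groups (up to 95.7, 94.7, 17.8 and 224 CPM), while the ranges of Tlr3 and Tlr7 overlap in all 6 groups.

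Several other measures moved with the transgene in the same nuclei. The summed level of 9 oligodendrocyte markers in microglia-like nuclei was 296 to 945 CPM (median 525.9) with P301S and 262 to 525 CPM (median 330) without, and that of 8 endothelial markers had medians of 67.4 and 46 CPM. The 10 microglial markers, all detected, had medians of 8831 and 10996 CPM. The 10 excitatory neuron markers had group medians of 345, 322 and 348 CPM in P301S Cgas+/+, P301S Cgas+/- and P301S Cgas-/-. Without P301S these were 468, 411 and 391 CPM, in the same order of Cgas genotypes. The 7 border macrophage markers (2 at 0 in every library) had medians of 10.9 and 4.7 CPM, and the 8 T cell markers (5 at 0) 6.1 and 3.5 CPM. The part of these cells in the result was not tested. Microglia-like UMI totals also had larger medians in the P301S groups, with overlapping ranges. They were 896178.5, 728626.5 and 839528 in P301S Cgas+/+, P301S Cgas+/- and P301S Cgas-/-. Without P301S they were 415214 in Cgas+/+, 461347.5 in Cgas+/- and 703116.5 in Cgas-/-. With the log2 total as a further covariate none of the 4 microglial calls remained, although the estimates were 1.08 for Ddx58 (edgeR, adjusted p = 0.0823), 1.01 for Ifih1 (0.176) and 0.71 for Eif2ak2 (0.345), with an adjusted p of 0.201 for Zbp1. The part of depth in the result was not otherwise tested.

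Over the 5 large classes, 30 member and class pairs were tested. edgeR called 6, microglial Zbp1 among them, all higher, where it called 1.91% of all gene and class pairs higher. With 1 library left out this count ran from 1 to 9, and with the depth covariate it was 1. At an unadjusted p under 0.05 there were 14 pairs, and DESeq2 called 11. Both rules also passed more of all genes. In microglia-like nuclei 2404 of 9738 genes had an unadjusted p under 0.05, and DESeq2 called 1179 in either direction. In astrocyte-like nuclei 6 of 10 members passed the filter, and Ddx58 rose by a log2 fold change of 1.15 ± 0.30 (edgeR, adjusted p = 0.0464), where 1.94% of genes were called higher. Its median was 15.7 CPM in the 9 libraries without P301S, which spanned 11.9 to 18 CPM, and 32.7 CPM in P301S (11.8 to 74.5 CPM), and 14 of 18 P301S libraries were above all others. The call was made in 11 of 27 fits that left out 1 library, and was lost without any 1 of the 9 libraries that lack P301S or of 7 P301S libraries (highest adjusted p 0.158). With the log2 UMI total as a covariate it was also lost (1.15, adjusted p = 0.0554). Ifih1 (1.03 ± 0.29, adjusted p = 0.0513) and Eif2ak2 (0.61 ± 0.17, adjusted p = 0.0595) lay just outside the threshold in the same nuclei, with 14 and 13 of 18 P301S libraries above all others. Tlr3, the receptor with its highest large-class level there, gave 0.10 ± 0.07 (adjusted p = 0.538), with medians of 43.4 and 41.2 CPM. Zbp1, below the filter, gave 32 UMIs in 11 P301S libraries and 0 in the 9 others, where a count of 0 allows up to 0.0939 CPM.

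In excitatory neuron-like nuclei 7 of 10 members passed the filter, and Ifih1 rose from a median of 0.594 to 1.34 CPM, a log2 fold change of 1.39 ± 0.25 (edgeR, adjusted p = 0.0101), where 1.5% of genes were called higher. The level was low, with 673 UMIs in P301S and 181 in the other libraries, where all kept nuclei averaged 4.12 CPM over the 27 libraries. The part of RNA from other classes in the neuronal level was not tested. The lowest values were those of the 2 Cgas-/- libraries, 0.254 and 0.275 CPM, and the call was lost without either of them or without Cgas+/- replicate 2. With the log2 UMI total as a covariate it was kept (1.42, adjusted p = 0.0127). Cgas+/+ replicate 3, at 1.44 CPM, lay within the P301S range of 0.521 to 2.19 CPM, and 6 of 18 P301S libraries exceeded it. Ddx58 gave 0.43 ± 0.17 (adjusted p = 0.171) and Eif2ak2 0.93 ± 0.32 (adjusted p = 0.109).

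In oligodendrocyte-like nuclei no member was called by edgeR among 5 tested, where it called 0.0077% of genes higher. Beside 1738 of all 12981 genes tested, 2 of the 5 had an unadjusted p under 0.05. DESeq2 called 1, where it called 103 of 12981 genes higher. The largest estimate was that of Eif2ak2, 1.64 ± 0.50 (adjusted p = 0.153), with medians of 8.95 and 2.34 CPM and 12 of 18 P301S libraries above all others. In inhibitory neuron-like nuclei none of 3 members tested was called by edgeR, which called 0.0144% of genes higher (0 members at an unadjusted p under 0.05, 0 by DESeq2).

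Oligodendrocyte progenitor-like nuclei were tested as a further class after the level of Ifih1 there had been seen, so the choice of class is not independent of the result. Ifih1 gave 1, 1, 0, 1 and 0 UMIs in the 5 Cgas+/+ libraries, 0 and 1 in Cgas+/- and 1 and 2 in Cgas-/-, or 0 to 1.71 CPM. In P301S the levels were 2.94 to 19.1 CPM (median 9.99) in P301S Cgas+/+, 1.03 to 19.9 (median 4.87) in P301S Cgas+/- and 3.08 to 14.5 (median 7.89) in P301S Cgas-/-. Every P301S library had at least 1 UMI, and 16 of 18 lay above every library without the transgene. The ratio of pooled levels, from 142 and 7 UMIs, was 10.9 (95% counting interval 5.17 to 27.7). edgeR called it (adjusted p = 0.00321), but Ifih1 passed the filter here only through P301S libraries, so that p is a description. Eif2ak2 followed at 1.90 ± 0.32 (adjusted p = 0.00655), from a median of 10.7 to 31.2 CPM with 14 of 18 P301S libraries above all others, and was lost without Cgas+/- replicate 1 or 2. Of the 5 members tested there, Ifih1, Aim2 and Mavs passed the filter only through P301S libraries, and 0.218% of 9645 genes were called higher. Ddx58 gave 0.94 ± 0.22 (adjusted p = 0.0698), Aim2 0.67 and Mavs -0.35. With the depth covariate, Eif2ak2 stayed called (adjusted p = 0.0224). The summed microglial markers in these nuclei were not higher in P301S (medians 51.4 and 57.1 CPM), those of oligodendrocytes were (247 and 179 CPM), and the progenitor's own 6 markers had medians of 20481 and 18435 CPM.

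**Figure D3:**
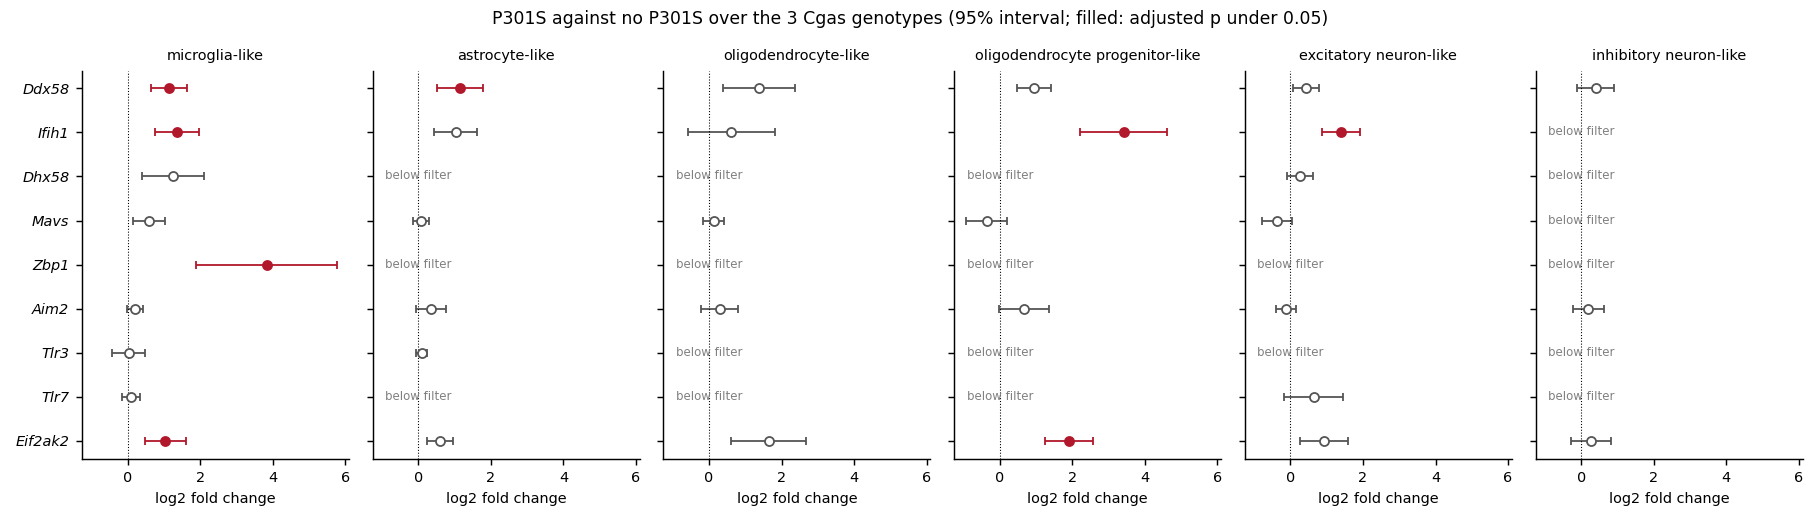
Log2 fold change (P301S minus no P301S over the 3 Cgas genotypes) with 95% intervals, for each member in 6 classes, filled where the adjusted p is under 0.05. Filled points are Ddx58, Ifih1, Zbp1 and Eif2ak2 in microglia-like, Ddx58 in astrocyte-like, Ifih1 in excitatory neuron-like, and Ifih1 and Eif2ak2 in oligodendrocyte progenitor-like nuclei. The points of Zbp1 and Dhx58 in microglia-like and of Ifih1, Aim2 and Mavs in oligodendrocyte progenitor-like nuclei are fitted values of genes that passed the filter only through P301S libraries, and are shown as a description.

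The dependence on Cgas was tested among P301S libraries, in a fit of 23 libraries without the groups of 2 mice, which the study also left out of its comparisons. Deletion (P301S Cgas-/- minus P301S Cgas+/+) called none of 28 member and class pairs by edgeR (0 at an unadjusted p under 0.05, 0 by DESeq2). Of all gene and class pairs edgeR called 0%, and DESeq2's only calls were 71 of 17006 genes in excitatory neuron-like nuclei. In microglia-like nuclei, deletion gave -0.12 for Ddx58 (95% interval -0.64 to 0.41), -0.34 for Ifih1 (-0.98 to 0.31), -0.14 for Eif2ak2 (-0.79 to 0.51) and 0.16 for Dhx58 (-0.71 to 1.03). It gave 0.15 for Mavs (-0.34 to 0.65), -0.05 for Aim2 (-0.30 to 0.21), -0.25 for Tlr7 (-0.54 to 0.04) and -0.01 for Tlr3 (-0.55 to 0.52). With 6 libraries a group, changes within these intervals remain compatible with the values, so they do not show that the groups act alike. A change outside them could also go uncalled, since p is adjusted over all genes of a class. The medians over 6 libraries stood at 45.8 and 39.9 CPM for Ddx58, 71.4 and 56.3 for Ifih1, 143 and 126 for Eif2ak2 and 7.72 and 6 for Zbp1, each within the wide ranges given above.

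The heterozygous contrast (P301S Cgas+/- minus P301S Cgas+/+) called 0% of all pairs by edgeR. DESeq2 called 120 of 17006 genes in excitatory neuron-like nuclei and 7 of 13121 in inhibitory neuron-like nuclei. Of the 28 member pairs none was called by edgeR (3 at an unadjusted p under 0.05, 0 by DESeq2). The 3 were all in excitatory neuron-like nuclei: Mavs at -0.81 ± 0.25 (adjusted p = 0.222), Tlr7 at -0.96 ± 0.44 (0.396) and Eif2ak2 at -0.88 ± 0.41 (0.408). Of all genes in that class, 1996 of 17006 had an unadjusted p under 0.05 by edgeR. In microglia-like nuclei 7 of 8 members were below 0, with a median of -0.27, and Mavs was above.

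The tau effect with Cgas intact alone (P301S Cgas+/+ minus Cgas+/+) called none of 28 pairs by edgeR, although 15 had an unadjusted p under 0.05, and DESeq2 called Ddx58 in microglia-like and in astrocyte-like nuclei (adjusted p = 0.0335 and 0.0265). Of all gene and class pairs, edgeR called 0.0108%. In microglia-like nuclei 1409 of 9186 genes had an unadjusted p under 0.05, and DESeq2 called 267. In astrocyte-like nuclei DESeq2 called 160 of 12980. The microglial estimates were 1.15 ± 0.32 for Ddx58 (edgeR, adjusted p = 0.1), 1.11 ± 0.38 for Ifih1 (0.158) and 1.10 ± 0.37 for Eif2ak2 (0.153), close to those from all 6 groups. In that group, replicate 2 was the lowest library for Ifih1 (23.7 CPM) and Eif2ak2 (60.9 CPM). It was the second lowest for Ddx58 (42.3 CPM) and Dhx58 (5.08 CPM). Leaving out a library that is low for these genes must raise the group's mean. The calls that edgeR made without it, for Ddx58, Ifih1 and Eif2ak2 (adjusted p = 0.0334, 0.028 and 0.0337), are therefore a description. No other library left out gave a member call in this contrast.

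Whether the tau effect itself differed by Cgas genotype was tested as an interaction in the 27-library fit. Of all pairs edgeR called 0.00587%, and DESeq2 called most in excitatory neuron-like nuclei, 881 of 17824 genes. By edgeR, 3346 of 17824 genes in excitatory neuron-like and 292 of 9738 in microglia-like nuclei had an unadjusted p under 0.05. None of 30 member pairs was called by edgeR (3 at an unadjusted p under 0.05, 0 by DESeq2). The 3 were Mavs in microglia-like nuclei (1.05 ± 0.50, adjusted p = 1) and Aim2 (-0.83 ± 0.29, 0.127) and Ifih1 (1.60 ± 0.60, 0.15) in excitatory neuron-like nuclei. Without P301S, Cgas-/- minus Cgas+/+ likewise called none of 30 by edgeR (3 at an unadjusted p under 0.05, 0 by DESeq2). The 3 pairs lay in excitatory neuron-like and astrocyte-like nuclei. There, 1326 of 17824 and 349 of 13740 genes had an unadjusted p under 0.05 by edgeR. Of all pairs edgeR called 0%, and DESeq2's only calls were 54 of 17824 genes in excitatory neuron-like nuclei. This contrast had only 2 libraries on one side. In it, the log2 fold change of Ifih1 stood at -1.52 ± 0.53 in excitatory neuron-like nuclei (edgeR, adjusted p = 0.544) and -1.12 ± 0.60 in microglia-like nuclei (adjusted p = 1). In both classes the 2 Cgas-/- libraries lay below all 5 Cgas+/+ libraries. The share of all genes that separate so was not counted, so this is a description. Both Cgas-/- libraries were from males with header version 3.0.2, while the Cgas+/+ libraries held both sexes and both versions. These contrasts share libraries with each other and with the tau effect.

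Sex was estimated in the same 23-library fit. Every library with header version 3.0.2 was from a male, so a sex difference cannot be fully told apart from header version. None of 28 pairs was called by edgeR, where it called 3.29% of all pairs in either direction. At an unadjusted p under 0.05 there were 3, in excitatory and inhibitory neuron-like nuclei. In these classes 4040 of 17006 and 1944 of 13121 genes passed that rule by edgeR. DESeq2 called 1 member pair, in inhibitory neuron-like nuclei, where it called 550 of 13121 genes. Tlr7, an X-linked gene, had a log2 difference (female minus male) of -0.03 ± 0.10 in microglia-like nuclei (adjusted p = 0.99). The smallest p was that of Ddx58 in inhibitory neuron-like nuclei, with a log2 difference of -0.77 ± 0.24 (adjusted p = 0.0896; DESeq2 adjusted p = 0.0445). Without P301S Cgas+/+ replicate 5, Ddx58 (-0.51) and Eif2ak2 (-1.08) were called lower in female excitatory neuron-like nuclei (edgeR, adjusted p = 0.0173 and 0.0061), and without P301S Cgas+/+ replicate 6, Ddx58 in inhibitory neuron-like nuclei was (adjusted p = 0.049).

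**Figure D4:**
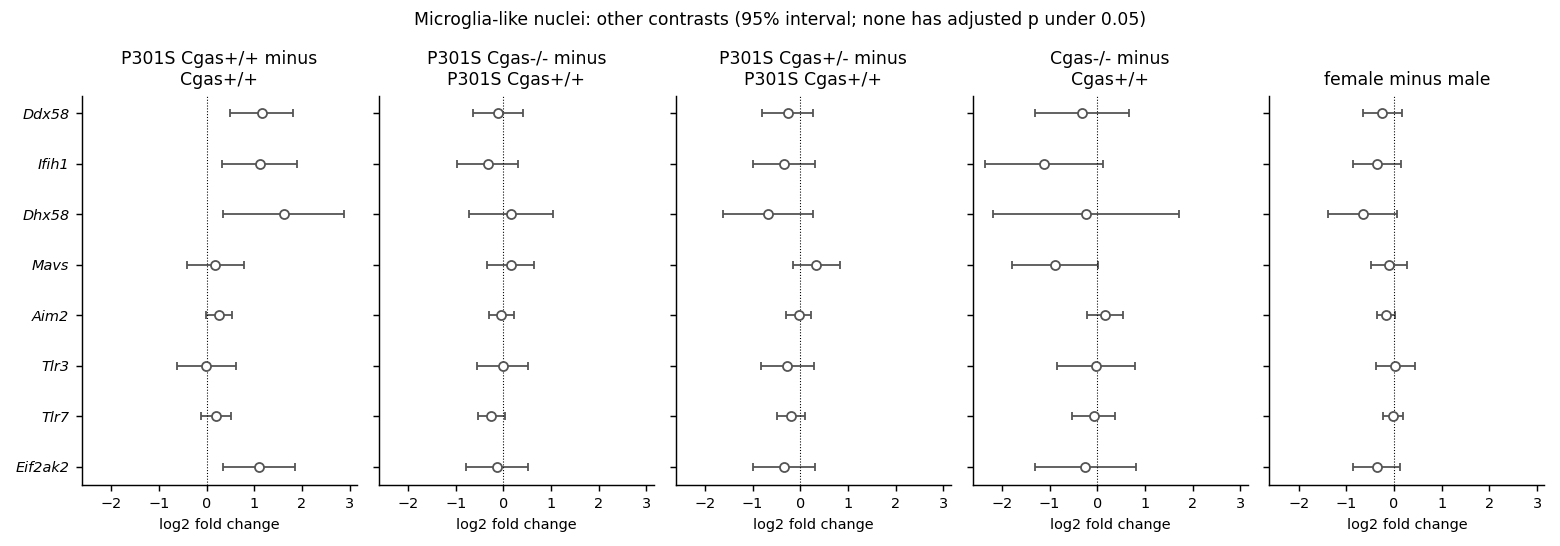
Log2 fold change with 95% intervals in microglia-like nuclei for 5 further contrasts, without Zbp1 and Tlr9. None passed the threshold. In the tau contrast 7 of the 8 members tested lie above 0. Among them, the point of Dhx58, which passed the filter only through P301S libraries, is a description. Under deletion the intervals of Ddx58, Ifih1, Dhx58 and Eif2ak2 span 0 on both sides (-0.98 to 0.31 for Ifih1).

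Microglia-like nuclei were clustered again, with the members and their pathway genes left out of the genes that drive the clustering, to see how evenly the sensors were held. Subcluster 1 (4055 nuclei) was the largest. Subcluster 6, with 577 nuclei, was led by Rsad2, Iigp1, Ifi213 and Oasl1, genes that interferon can switch on, and 566 of its nuclei came from P301S libraries. Levels between subclusters are a description only.

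From subcluster 1 to subcluster 6, pooled CPM went from 32.2 to 226 for Ddx58, from 28.9 to 232 for Ifih1 and from 5.9 to 65.9 for Dhx58. It went from 73.5 to 462 for Eif2ak2 and from 0.3 to 54.9 for Zbp1. Mavs (22 to 30.4), Tlr7 (187 to 245), Aim2 (249 to 367) and Tlr3 (32 to 56.6) varied less. Of the 137 microglial Zbp1 UMIs, 62 came from the P301S nuclei of subcluster 6, and the 3 UMIs of libraries without P301S were all in the 11 such nuclei of that subcluster. Within subcluster 1, P301S and other nuclei gave 30.7 and 27.2 CPM for Ifih1 and 76 and 71 CPM for Eif2ak2, and 39 and 25.5 CPM for Ddx58. Within subcluster 5, with 484 and 400 nuclei, they gave 30.8 and 25.1 CPM for Ifih1, 82.5 and 45.1 for Eif2ak2 and 27.1 and 23.4 for Ddx58. These levels are pooled over libraries, so they carry no spread between mice and were not tested.

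Without subcluster 6, a setting chosen after seeing the data, the tau effect in microglia-like nuclei was 0.93 ± 0.24 for Ifih1 (edgeR, adjusted p = 0.0154) and 0.79 ± 0.25 for Eif2ak2 (0.0435), both still called. The estimate for Ddx58 was 0.66 ± 0.22 (adjusted p = 0.0542) and Dhx58 was not called (0.204), and Zbp1 no longer passed the filter. Since 566 of the 577 nuclei left out were from P301S libraries, the setting removes nuclei from one side of the comparison.

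**Figure D5:**
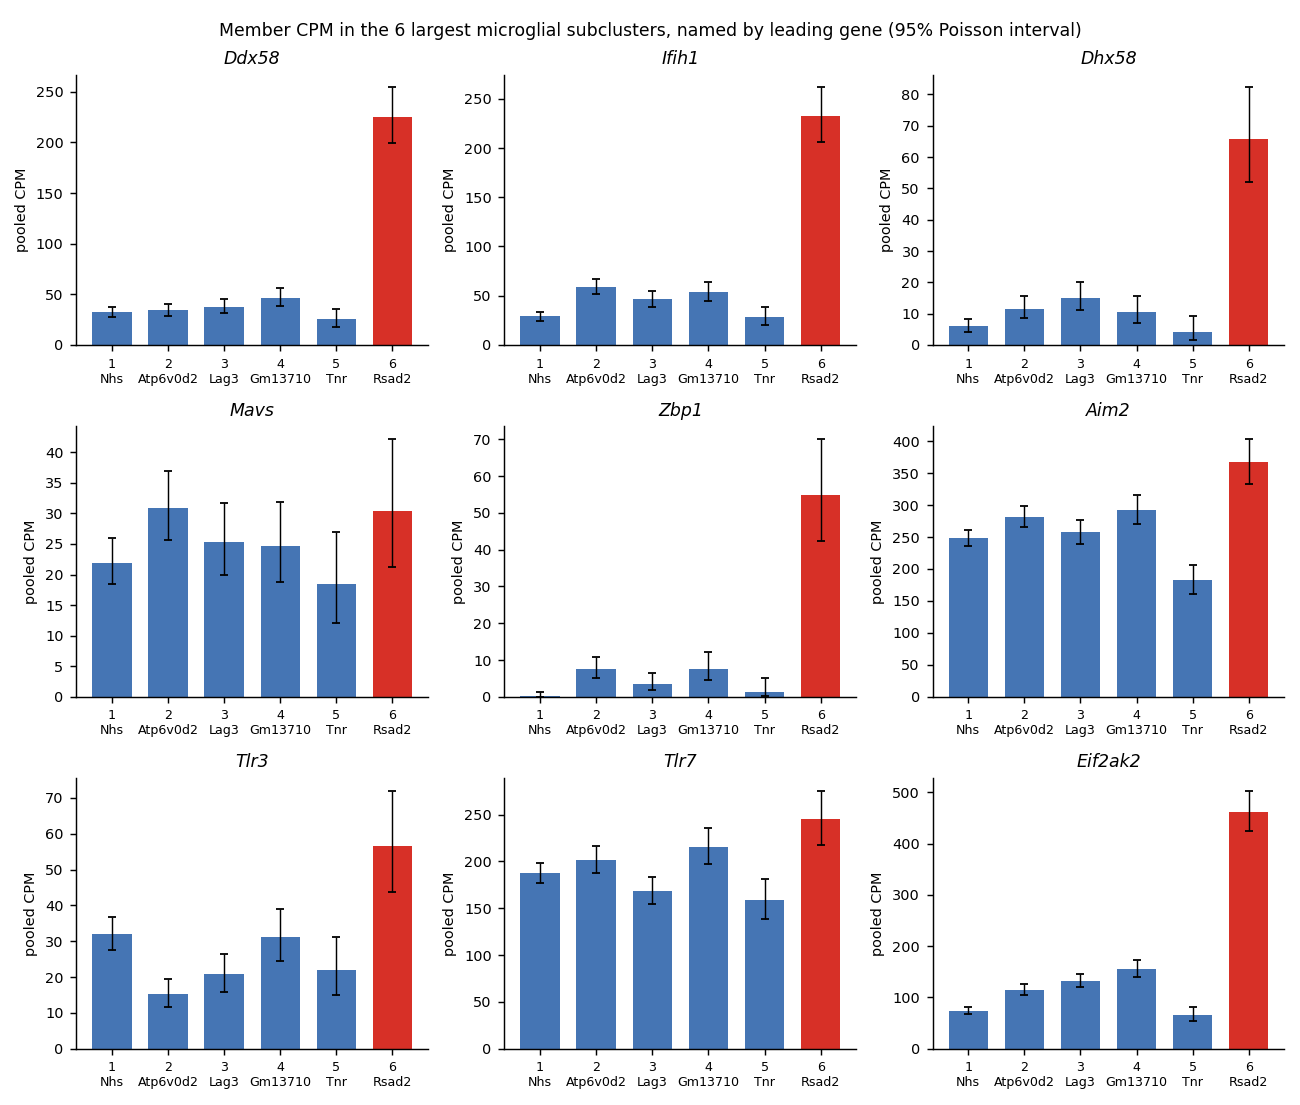
Pooled CPM of each member in the 6 largest microglial subclusters, named by number and leading gene, with 95% Poisson intervals and axes from 0. Subcluster 6 (Rsad2) stands above the other 5 for Ddx58, Ifih1, Dhx58, Zbp1 and Eif2ak2, and by less for Aim2 and Tlr3.

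Over the 27 libraries, the genes most like each interferon-inducible member in microglia-like nuclei were themselves interferon-stimulated genes. These are Pearson correlations of log2(CPM + 1) with each of 9143 genes, given as a description, and the libraries share the transgene and differ in depth. Zbp1 was most like Oas2 (0.96), Oasl2 (0.93) and Trim30a (0.93), and Eif2ak2 like Parp14 (0.93), Trim30a (0.92) and Stat2 (0.91). Ifih1 was most like Znfx1 (0.91), Ddx58 like Trim30d (0.83) and Dhx58 like Xaf1 (0.79). The nearest genes to Mavs (Klf13, 0.75), Aim2 (Rap1a, 0.79), Tlr3 (Arhgap12, 0.65) and Tlr7 (Gcnt7, 0.70) were of other kinds.

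Genes that work with the sensors were followed through 6 lists in microglia-like nuclei, by the same tau effect. Of 19 adaptors and signalling genes, 15 were tested and 5 were called higher, where 7.84% of all genes were: Ikbke, an IKK-related kinase (24.2 ± 20.7 CPM in 18 P301S libraries against 1.60 ± 1.67 in 9 others), Tank (143 ± 45.3 against 77.1 ± 19.7, log2 fold change 1.06), Trim25, a ubiquitin ligase that acts on RIG-I (41.5 ± 12.9 against 26.1 ± 6.12, 0.92), Irak2 (0.55) and Traf3 (0.50). Their adjusted p by edgeR ran from 0.00264 to 0.0105. The list's median log2 fold change was 0.35, against 0.02 over all genes.

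Of 12 genes for editing and disposal of nucleic acid, 8 were tested. Adar, which edits double-stranded RNA (0.71 ± 0.15), and Samhd1, which breaks down dNTPs (0.61 ± 0.17), were called higher. Here and for the lists below, the share of all genes called higher was the same 7.84%. Of 12 further sensors listed, 10 were in the files and 7 were tested, and Ifi204 (32.8 ± 28.8 CPM in 18 P301S libraries against 1.71 ± 2.28 in 9 others), Ddx60 (log2 fold change 1.20 ± 0.31) and Mb21d1 (0.73 ± 0.18) were called higher. The Mb21d1 means differed little with Cgas intact (34.6 and 37.3 CPM without and with P301S) and more in the libraries labelled Cgas+/- (18.3 and 42.2) and Cgas-/- (27.6 and 50.4), of which only 2 each lack P301S. Of 6 trafficking genes listed for endosomal Toll-like receptors, 5 were in the files and tested, and Lamp1 (0.66 ± 0.20) was called. None of 5 tested cell death and inflammasome partners and none of 7 tested partners of the double-stranded RNA kinase was called by edgeR (0 at an unadjusted p under 0.05 in either list, 0 by DESeq2), with medians of -0.02 and 0.07. Ikbke and Ifi204, like Zbp1, passed the filter only through P301S libraries, so their calls are a description and their fitted fold changes are not given. No gene of any list was called lower by edgeR, which called none in the other 6 contrasts. DESeq2 called 2 adaptors, 1 gene for editing and disposal and 2 further sensors in the tau contrast. It also called 1 trafficking gene in the sex contrast.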

How the data were processed

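Nuclei from 27 mouse hippocampi were profiled with the 10x Chromium 3′ v3 kit. The deposited matrices hold UMI counts per gene and barcode, one matrix per library, which the authors made with Cell Ranger and mm10 (the processing notes name version 3.1.0 and Seurat 3.0, and the matrix headers name 3.0.2 in 12 libraries and 3.1.0 in 15). All columns were used. Reads on pre-mRNA were counted, and the 241938 deposited barcodes are those that Cell Ranger called.

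A nucleus was kept with 200 to 4000 genes and no more than 5% of its UMIs mitochondrial, and likely doublets, 0.8% per 1000 barcodes of each library, were removed (16429 in all). Clusters were made with scanpy 1.11.5 and igraph 0.11.9, without the members and the pathway lists among the genes used, and named from fixed markers. The naming rule was revised after the markers had been seen and before any groups were compared. At most 48 barcodes were shared by 2 libraries. UMI counts were summed per library and class, and tested with edgeR 4.0.16 (TMM, filterByExpr, quasi-likelihood, sex as a covariate, Benjamini-Hochberg over all genes of a class, called at an adjusted p under 0.05). DESeq2 1.42.0 was an alternative. On simulated data for the tau contrast in microglia-like nuclei (9186 genes), 50.5% of 2-fold and 93.2% of 4-fold changes were recovered. Intervals of pooled UMIs are exact Poisson and cover counting error only. A count of 0 allows up to 3 counts.

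The members, lists and tests were chosen with earlier results of these data known. The rule was to name all members in every class and contrast. Members given no value in a contrast were below the filter or not called there. Of each pathway list the genes called are named, up to 6 by smallest p. Oligodendrocyte progenitor-like nuclei, the software version block and the removal of a subcluster were added after seeing the data. Replicates are separate mice, numbered in accession order.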

Additional observations from a re-analysis of the deposited data

Results flagged for a closer look

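In 10 of 120 groups of 5 or 6 libraries that were examined, 1 library stood far from the others in the level of a member, and chance flags about 1 in 20 such groups. Ifih1 gave 4 of the 10. In microglia-like nuclei Cgas+/+ replicate 2 had 60.21 CPM of Ifih1, where the next highest library of its group had 26.61 CPM. P301S Cgas+/+ replicate 5 was highest of its group for Ifih1 in astrocyte-like nuclei (42.59 CPM, next 19.08) and in oligodendrocyte-like nuclei (10.5 CPM, next 3.704). P301S Cgas+/- replicate 1 had 2.031 CPM of Ifih1 in excitatory neuron-like nuclei (next 1.376) and 27.68 CPM of Aim2 in inhibitory neuron-like nuclei (next 13.52).

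P301S Cgas+/+ replicate 3, the library with the most unnamed nuclei, had 19.87 CPM of Aim2 in excitatory neuron-like nuclei (next 12.32). Tlr3 reached 43.55 CPM in microglia-like nuclei of Cgas+/+ replicate 1 (next 26.2) and 48.59 CPM in astrocyte-like nuclei of P301S Cgas+/- replicate 3 (next 43.26). Cgas+/+ replicate 4 was the lowest of its group for Eif2ak2, at 28.74 CPM in astrocyte-like nuclei (next lowest 41.42) and 1.076 CPM in inhibitory neuron-like nuclei (next lowest 3.647).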

How the results depend on the processing

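Across the alternatives run, 1837 values of a log2 fold change in microglia-like nuclei either kept their call and direction or stayed uncalled within 1 SE, 14 uncalled values moved by more than 1 SE, 13 gained a call, 10 lost one and no called value reversed. In the 5 large classes, the 74 levels of 9 members recomputed from pooled UMIs or deeper nuclei moved by less than 1 SD. For the tau effect over the 3 Cgas genotypes, the number of member and class pairs called (6 of 30) was 11 with DESeq2 and 1 with the depth covariate (Ifih1 in excitatory neuron-like nuclei). Without TMM or without sex it was 7, and it was 6 without the filter on low counts or with the software version named in the file headers as a block. With 1 library left out it ranged from 1 (without Cgas+/- replicate 2) to 9 (without P301S Cgas+/+ replicate 2), with 3 without Cgas-/- replicate 1. Without P301S Cgas+/+ replicate 3, which stands apart in depth and unnamed nuclei, it was 5. The tau contrast called 0 pairs, 2 with DESeq2, and 0 to 3 with 1 library left out. The sex contrast called 0, 1 with DESeq2, and 0 to 2 with 1 library left out. The deletion, heterozygous, interaction and tau-free deletion contrasts called 0 under every alternative run. The cause was not tested.

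No paired analysis was possible because the replicate numbers are in accession order and pair no libraries. A block for the library run was not run, since neither labels nor headers name a run. With 2 libraries each, Cgas+/- and Cgas-/- without P301S hold few libraries for the tau effect and the interaction. At the depth of microglia-like nuclei, Zbp1 and Tlr9 rest on few UMIs.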
